A study of Rattus norvegicus with 6 samples.

Results

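The 10 genes described here encode proteins of the gap, tight and adherens junctions, by which liver cells are joined to each other. They were picked by name, and rows of the table were matched to them by symbol alone, for Gjb1, Gjb2, Gja1, Cldn1, Cldn2, Cldn3, Cldn5, Tjp1, Ocln and Cdh1, and each of them matched 1 of the 19616 genes with FPKM values (fragments per kilobase of transcript, scaled to the mapped fragments of the library). Gap junctions are channels built of connexins, through which neighbouring hepatocytes exchange ions and small metabolites. Tight junctions seal the bile canaliculus from the blood side of the hepatocyte, with claudins and occludin in the membrane and ZO proteins as the scaffold beneath it, and adherens junctions hold cells together through cadherins bound to catenins. Loss of hepatocyte connexins and a leaky canalicular seal are known features of injured liver.

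Total RNA depleted of ribosomal RNA was sequenced from the livers of 3 rats with fibrosis (FL group, FL2, FL5 and FL12) and 3 control rats (CL group, CL5, CL6 and CL7), with 1 library per rat. All were male SD rats, whose age is not given in the sources used here. The FL rats had received intraperitoneal CCl4, a solvent that injures hepatocytes, mixed with an equal part of olive oil, at 2 mL/kg and 2 injections weekly over 5 weeks, while olive oil alone was injected into the CL rats. Alb (albumin), the main secreted protein of hepatocytes, was read at 31431 to 33392 FPKM in the CL rats and 24149 to 25209 FPKM in the FL rats. Col1a1, the main fibrillar collagen of scar tissue, read 2.12, 3.77 and 2.12 FPKM (CL5, CL6, CL7) against 17.0, 101 and 73.7 FPKM (FL2, FL5, FL12). The table gives no counts, so that the depth of a single library could not be read from it. The copies of U6, a small nuclear RNA, took values near whole multiples of a step in each library, with 67.5% to 88.2% of the values up to 3 steps whole within 0.1 of a step. The step was taken as the most frequent U6 value of the library, so that values at the step count as whole by definition. Whether the step stands for a single fragment was not tested. The size of the step put the relative depth at 1, 0.656 and 0.84 (CL5, CL6, CL7) against 0.677, 0.75 and 0.677 (FL2, FL5, FL12). The 10 most abundant genes took 31.5% to 36.7% of the summed FPKM in the CL rats and 23.6% to 25.6% in the FL rats.

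All 10 genes read above 0 in every rat, though Cldn5 at only 0.02 to 0.10 FPKM in the CL rats. All passed the filter of a mean of 0.1 FPKM, so that all could be tested with limma on log2(FPKM + 0.1). Gjb1, Tjp1 and Cldn1 fell in the FL group, each to between 0.6 and 0.676 of its CL level. Cldn3 rose 1.73-fold, and Cldn5, the gene with the lowest level, rose 3.19-fold. Gjb2, Gja1, Cldn2, Ocln and Cdh1 did not pass the test. An adjusted p under 0.05 was thus reached by 5 of the 10 genes, and by 18.9% of all 14864 genes tested. The 3 lower genes stand beside 1.94% of all genes that were lower at this threshold, and the 2 higher genes beside 16.9% that were higher. Cldn5 alone also passed the 2-fold limit that the study set, which 10.2% of all genes tested passed, 9.29% as higher and 0.935% as lower. No overlap between FL and CL rats was seen for 6 of the 10 genes (40.5% of all genes tested), with 3 lower (4.78%) and 3 higher (35.7%) in the fibrotic livers. The split of calls moved with the scaling between rats. Of all genes, 8.75% were higher and 3.59% lower after median scaling, and 5.23% and 3.61% after quantile normalization, and of the 10 genes 1 was higher and 3 lower with the former and 0 and 2 with the latter. The median log2 difference (FL minus CL) of every gene tested was 0.29, or 0.08 after median scaling and -0.04 after quantile normalization, whereas that of the 10 genes was -0.02 (-0.25 and -0.16). Relative to the median of all genes, the log2 differences were -1.03 for Cldn1, -0.86 for Gjb1, -0.85 for Tjp1, 0.50 for Cldn3 and 1.39 for Cldn5. In bulk tissue, fewer cells of a type and less RNA per cell cannot be told apart.

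**Figure D1:**
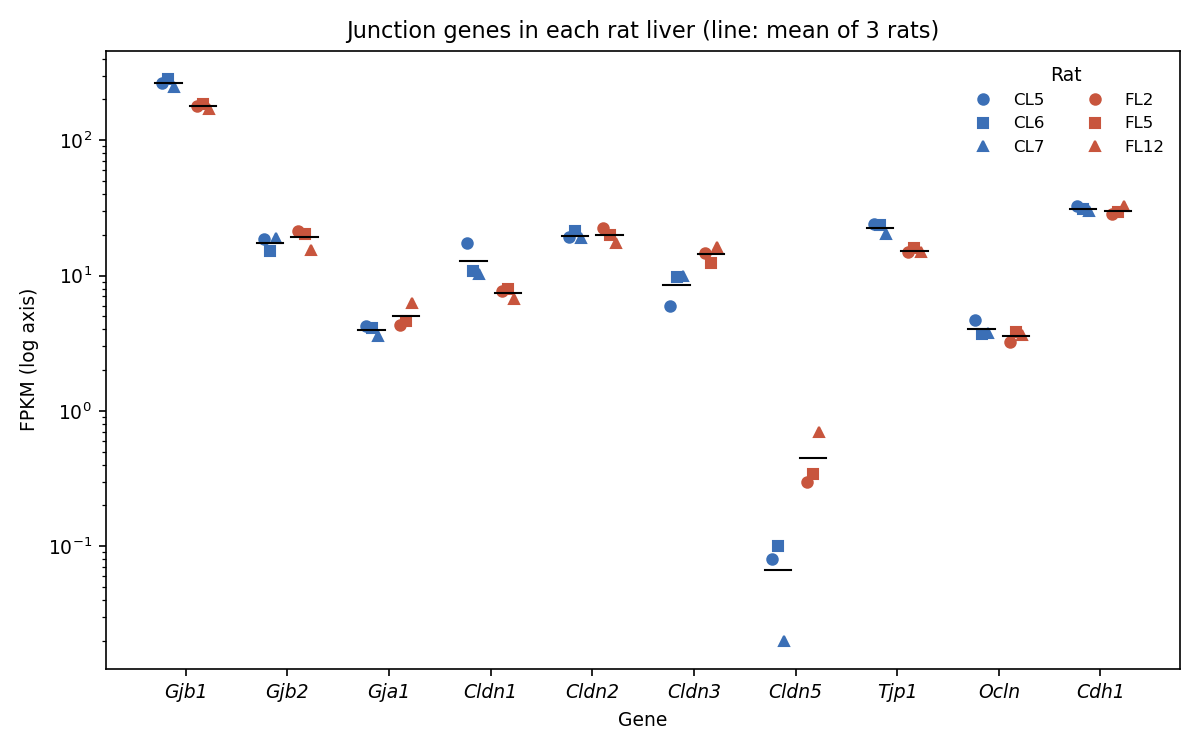
FPKM of the 10 junction genes (x axis) in each rat on a log axis (y axis), with CL rats in blue, FL rats in red, a marker shape per rat and a line at the mean of 3 rats. Gjb1 stands far above the other genes in all 6 rats, the FL values of Gjb1, Tjp1 and Cldn1 lie below all CL values, and those of Cldn3, Cldn5 and Gja1 lie above them.

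Gjb1 (ENSRNOG00000003746, chromosome X) encodes connexin Cx32, the principal gap junction protein of hepatocytes. It read 264, 284 and 246 FPKM (CL5, CL6, CL7) against 178, 185 and 171 FPKM (FL2, FL5, FL12). The FL rats varied little among themselves (178 ± 6.86 FPKM, SD, n = 3) and all lay below the CL rats (265 ± 18.8 FPKM). The log2 fold change of Gjb1 was -0.57 (standard error 0.14, 95% interval -0.89 to -0.25, adjusted p = 0.028 from limma), which is a fall to 0.673 of the CL level. When the values were scaled between rats, it was -0.80 with median scaling (adjusted p = 0.0136) and -0.48 with quantile normalization (adjusted p = 0.0611). The call was also lost without CL5 (adjusted p = 0.0738), CL6 (0.101), CL7 (0.0711), FL5 (0.0653) or FL12 (0.073), with a negative fold change each time. The 10 hepatocyte markers summed to 46501 to 49337 FPKM in the CL rats and to 36600 to 38871 FPKM in the FL rats, mostly as Alb. Of the 10, 0 passed the adjusted p from limma, and 3 had an unadjusted p under 0.05, with Apoc3 lower and Apoa1 and Tat higher in the FL group. That count of 0 depended on the fit, since Apoa1 and Apoc3 passed with limma without trend (adjusted p = 0.0397 and 0.0339), with a robust prior (0.0424 and 0.0325) and when only genes that averaged 1 FPKM or more were tested (0.0478 and 0.0418), and both passed with Tat without FL2 (0.0203, 0.0378 and 0.0237). Without overlap between the groups, 4 of the 10 (Alb, Ttr, Apoc3 and Hnf4a) were lower in the FL rats and 1 (Apoa1) was higher. Of all genes tested, 4.78% were lower and 35.7% higher without overlap. The standard error of Alb in the fit with a trend was 0.98. The part of the hepatocyte markers in the fall of Gjb1 was not tested.

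Gjb2 (ENSRNOG00000008855, chromosome 15) encodes Cx26, the other connexin of hepatocytes, which can share channels with Cx32. It read 18.5, 15.3 and 18.8 FPKM (CL5, CL6, CL7) against 21.3, 20.4 and 15.6 FPKM (FL2, FL5, FL12), so that the groups overlapped. The log2 difference was 0.12 (95% interval -0.24 to 0.47, adjusted p = 0.611), and its sign turned with median scaling (-0.11) and quantile normalization (-0.05). Gja1 (ENSRNOG00000000805, chromosome 20) encodes Cx43, the connexin of stellate cells, endothelium and other non-parenchymal cells of the liver. It read 4.25, 4.11 and 3.58 FPKM (CL5, CL6, CL7) against 4.33, 4.60 and 6.22 FPKM (FL2, FL5, FL12). The FL rats all lay above the CL rats, but FL2 by only a small step, and the difference did not pass the test (log2 difference 0.32, 95% interval -0.07 to 0.71, adjusted p = 0.21). It lay close to the median of all genes (0.29), and was 0.10 after median scaling and 0.00 after quantile normalization.

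A ratio within a rat is not moved by a common scaling factor. Gjb1 exceeded Gjb2 by 14.3, 18.6 and 13.1 times in CL5, CL6 and CL7, and by 8.34, 9.06 and 11 times in FL2, FL5 and FL12. The log2 ratio was 0.69 lower in the FL group, without overlap between the groups (exact permutation test, two-sided p = 0.1, which is the lowest value that 3 against 3 rats can reach). The ratio of Gja1 to Gjb1 was 0.0161, 0.0145 and 0.0145 (CL5, CL6, CL7) against 0.0243, 0.0249 and 0.0363 (FL2, FL5, FL12), which is a log2 ratio 0.89 higher in the FL group and again without overlap (exact permutation test, two-sided p = 0.1). Of the summed FPKM of the 14 connexin genes listed, Gjb1 made up 90.6% to 92.4% in the CL rats and 86.1% to 87.0% in the FL rats. The share of Gjb2 was 4.96% to 6.91% in the CL rats and 7.9% to 10.3% in the FL rats, and that of Gja1 was 1.32% to 1.47% and 2.09% to 3.16%. The connexin RNA of the fibrotic livers was thus still mostly Gjb1, at a lower sum of 197 to 213 FPKM against 272 to 308 FPKM in the CL rats.

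Among the claudins, Cldn1 (ENSRNOG00000001926, chromosome 11), a sealing claudin of the tight junctions of hepatocytes and bile ducts, fell. Its values were 17.3, 10.8 and 10.2 FPKM (CL5, CL6, CL7) against 7.72, 7.90 and 6.68 FPKM (FL2, FL5, FL12). CL5 stood well above the other CL rats, while the FL rats were close together and below all of them. The log2 fold change was -0.74 (standard error 0.20, 95% interval -1.21 to -0.27, adjusted p = 0.0419 from limma), or -0.96 with median scaling (adjusted p = 0.0259) and -0.97 with quantile normalization (adjusted p = 0.03). The call was lost when any 1 rat was left out, with adjusted p-values from 0.0582 (without CL7) to 0.115 (without FL12), and also with no filter on low values (0.0616) and with limma without trend (0.0805). Without CL5, the log2 fold change was -0.50 (adjusted p = 0.0689).

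Cldn3 (ENSRNOG00000046007, chromosome 12), also a sealing claudin and present in both hepatocytes and bile duct epithelium, rose. It read 5.91, 9.69 and 9.84 FPKM (CL5, CL6, CL7) against 14.6, 12.4 and 16.3 FPKM (FL2, FL5, FL12). CL5, which was highest in Cldn1, was lowest in Cldn3, and all FL rats exceeded all CL rats. The log2 fold change was 0.79 (standard error 0.21, 95% interval 0.30 to 1.28, adjusted p = 0.0384 from limma). The call was lost with median scaling (0.56, adjusted p = 0.135), with quantile normalization (0.57, adjusted p = 0.137), with no filter on low values (adjusted p = 0.0572), with limma without trend (0.0756), and when any 1 rat was left out (0.0583 to 0.109). The 10 cholangiocyte markers summed to 16.3, 23.5 and 18.9 FPKM (CL5, CL6, CL7) against 27.7, 85.3 and 61.0 FPKM (FL2, FL5, FL12), with Slc4a2 the highest in the CL rats and FL2 and Spp1, which macrophages also express, the highest in FL5 and FL12. Of the 9 tested, 7 had a positive and 2 a negative log2 difference, with a median of 0.80 that fell to 0.23 under quantile normalization. Spp1 and Aqp1 passed the test with higher values. The Spp1 call was lost without CL7 (adjusted p = 0.0508), and that of Aqp1 under median scaling (0.126), quantile normalization (0.16), no filter on low values (0.0666) and limma without trend (0.0796), and without any 1 rat other than FL2. Cftr, the chloride channel of duct cells, did not pass but was higher in every FL rat (0.12, 0.07 and 0.07 against 0.20, 0.34 and 0.91 FPKM, adjusted p = 0.0745). The 2 with a negative difference, the duct keratins Krt7 (0.32, 0.62 and 0.35 against 0.13, 0.09 and 0.47 FPKM) and Krt19 (0.55, 0.62 and 0.60 against 0.46, 0.39 and 1.06 FPKM), overlapped between the groups. The part of duct cells in the rise of Cldn3 was not tested.

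Cldn2 (ENSRNOG00000054495, chromosome X) forms a pore for cations and water and is the claudin of hepatocytes near the central vein. With 19.2, 21.2 and 18.8 FPKM (CL5, CL6, CL7) against 22.3, 19.98 and 17.3 FPKM (FL2, FL5, FL12), the groups overlapped and their means were almost equal. The log2 difference was 0.00 (95% interval -0.29 to 0.30, adjusted p = 0.988), or -0.22 with median scaling (adjusted p = 0.331). Its ratio to Cldn3 was 3.25, 2.18 and 1.91 (CL5, CL6, CL7) against 1.53, 1.61 and 1.06 (FL2, FL5, FL12). The log2 of this ratio was 0.78 lower in the FL group, without overlap (exact permutation test, two-sided p = 0.1, the smallest p possible).

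Cldn5 (ENSRNOG00000045811, chromosome 11) is the claudin of endothelial tight junctions. It read 0.08, 0.10 and 0.02 FPKM (CL5, CL6, CL7) against 0.30, 0.34 and 0.70 FPKM (FL2, FL5, FL12). Every FL rat exceeded every CL rat, and FL12 was the highest by a wide margin. The standard error of Cldn5 was the largest among the 10 genes. The means were 0.0667 ± 0.0416 and 0.447 ± 0.22 FPKM (SD, n = 3), and the log2 fold change on the log2(FPKM + 0.1) scale was 1.68 (standard error 0.42, 95% interval 0.70 to 2.65, adjusted p = 0.0321 from limma). It depended on the pseudocount, with 0.43 at a pseudocount of 1 (adjusted p = 0.0505) and 2.67 at a pseudocount of 0.01 (adjusted p = 0.0392), and the call was lost with quantile normalization (1.15, adjusted p = 0.129) and when any rat but FL2 was left out (adjusted p 0.0625 to 0.108). The 9 vascular endothelial markers in the table summed to 39.9 to 42.3 FPKM in the CL rats and to 52.3 to 57.9 FPKM in the FL rats, with Eng as the most abundant, and Eng, Vwf and Tie1 passed the test with higher values. These 3 calls were all lost under median scaling (adjusted p = 0.242, 0.0574 and 0.152), quantile normalization (0.154, 0.0989 and 0.255) and limma without trend (0.0751, 0.0504 and 0.0661), and without any 1 rat other than FL2. Of the 10 sinusoidal endothelial markers only Stab2 passed, a call lost without CL7 (adjusted p = 0.0563), and the list summed to 112 to 127 FPKM and 120 to 146 FPKM. The part of endothelial cells in the rise of Cldn5 was not tested.

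Within the claudin family, the balance between Cldn1 and Cldn3 differed between the groups. Cldn1 was the higher of the pair in each CL rat, and Cldn3 in each FL rat. As shares of the summed FPKM of the 17 claudin genes listed, Cldn1 took 29.8%, 19.7% and 19.7% in CL5, CL6 and CL7 and 13.6%, 15.1% and 12.8% in FL2, FL5 and FL12, and Cldn3 took 10.2%, 17.6% and 19.0% and then 25.7%, 23.8% and 31.3%. Cldn2 kept a share of 33.1% to 38.5% in the CL rats and 33.2% to 39.3% in the FL rats. The claudin sum overlapped between the groups, with 51.9 to 58.1 FPKM in the CL rats and 52.0 to 56.8 FPKM in the FL rats.

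Ocln (ENSRNOG00000018297, chromosome 2) encodes occludin, which lies in the tight junction strand beside the claudins. It read 4.69, 3.72 and 3.75 FPKM (CL5, CL6, CL7) against 3.21, 3.85 and 3.66 FPKM (FL2, FL5, FL12). The groups overlapped, with CL5 the highest, and the log2 difference of -0.17 did not pass the test (95% interval -0.52 to 0.18, adjusted p = 0.443). Scaling moved it further down, to -0.39 with median scaling (adjusted p = 0.11) and -0.51 with quantile normalization (adjusted p = 0.0577).

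Tjp1 (ENSRNOG00000011077, chromosome 1) encodes ZO-1, the scaffold that ties claudins and occludin to actin and also binds connexins. It read 23.8, 23.7 and 20.2 FPKM (CL5, CL6, CL7) against 14.9, 15.9 and 14.8 FPKM (FL2, FL5, FL12). The FL values were close together, below all CL values, and averaged 15.2 ± 0.584 against 22.6 ± 2.08 FPKM (SD, n = 3). The log2 fold change was -0.57 (standard error 0.11, 95% interval -0.83 to -0.30, adjusted p = 0.0146 from limma), with -0.79 under median scaling (adjusted p = 0.00629) and -0.73 under quantile normalization (adjusted p = 0.00925). Of the 10 genes this was the call that held under the most alternatives, 12 of 14, and it was lost without CL5 (adjusted p = 0.0521) and without CL6 (0.056).

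Cdh1 (ENSRNOG00000020151, chromosome 19) encodes E-cadherin, the adherens junction cadherin of periportal hepatocytes and duct cells. It read 32.6, 30.9 and 29.9 FPKM (CL5, CL6, CL7) against 28.4, 29.3 and 32.4 FPKM (FL2, FL5, FL12). The groups overlapped, and the log2 difference of -0.05 did not pass the test (adjusted p = 0.756). Its 95% interval ran from -0.30 to 0.20, or from 0.813 to 1.15 times the CL level. With median scaling the difference was -0.28 (adjusted p = 0.104).

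**Figure D2:**
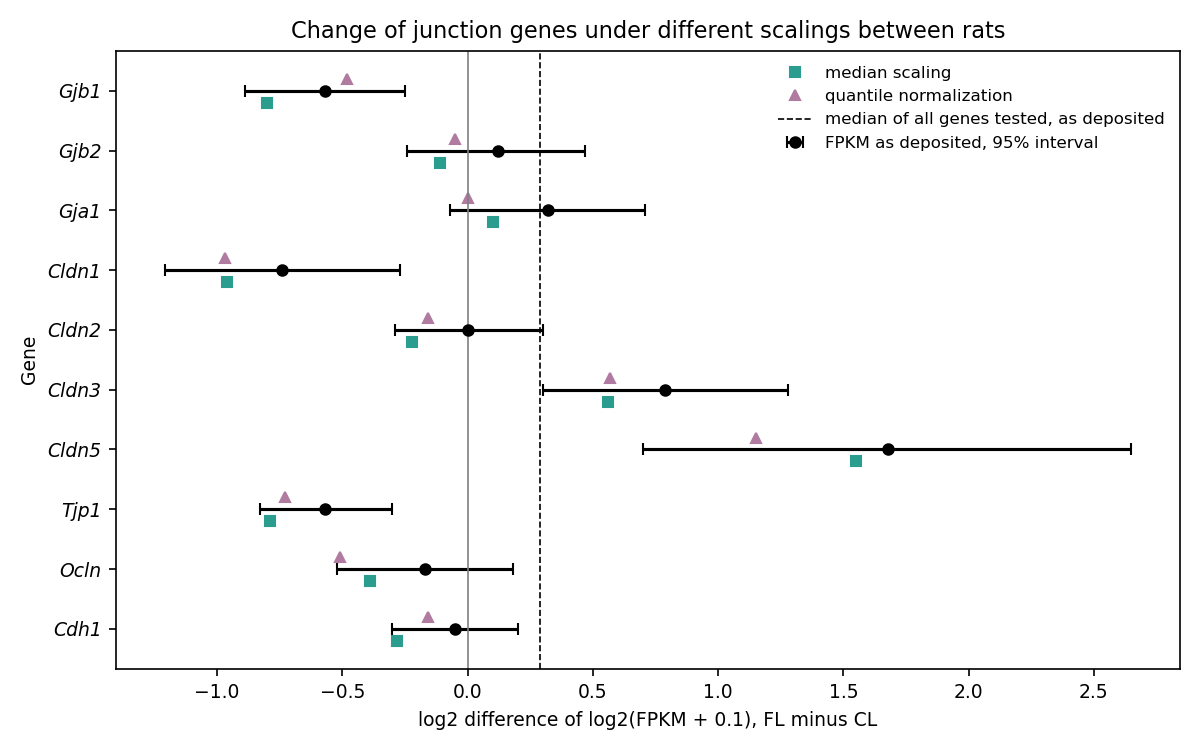
FL minus CL difference in log2(FPKM + 0.1) (x axis) for each junction gene (y axis). Black points and bars are limma's estimate and 95% interval on the values as deposited, squares and triangles the estimates after median scaling and quantile normalization, and the dashed line the median of all genes tested (0.29). Gjb1, Cldn1 and Tjp1 lie left of 0 and Cldn3 and Cldn5 right of it under all 3 scalings. Gjb2 changes sign, and Cldn2 lies at 0.00 as deposited and left of 0 after median scaling and quantile normalization.

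FPKM are per length, so the levels of the 10 genes could be set in order within a rat. Gjb1 was the highest, Cdh1 the next and Cldn5 the lowest in all 6 rats. In the CL group, Tjp1 came next after Cdh1 in every rat, followed by Cldn2, Gjb2, Cldn1 and Cldn3. In the FL group, Tjp1 stood below both Gjb2 and Cldn2 in each rat, and Cldn3 above Cldn1. Neighbours whose ranges overlapped were Tjp1 and Cldn2, Gjb2 and Cldn1, and Ocln and Gja1 in the CL group, and Cldn2 and Gjb2, Gjb2 and Tjp1, and Tjp1 and Cldn3 in the FL group. Gja1 was above Ocln in each FL rat, and in CL6 alone of the CL rats.

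The region before the start of each gene was read from RefSeq sequences of the rat genome build GRCr8 for 8 of the 10 genes, matched by symbol (Cdh1 and Cldn2 were not matched). A match describes the letters of the window only. Windows of 250 bases were searched on both strands, so that each motif was also sought as its reverse complement. The motifs were the GC box known to be bound by Sp1, with the letters GGGCGG, and an E-box of the kind bound by Snail factors, with the letters CACCTG. The TATA box was sought as TATAAA, and the site of AP-1 factors such as Jun and Fos as TGAGTCA. Of all 33469 windows, 30.5% held the GC box, 15.9% the E-box, 12.9% the TATA box and 4.05% the AP-1 site. The GC box was found in Cldn1, Cldn3, Cldn5 and Gjb2, the E-box in Cldn3, Gjb2 and Ocln, the AP-1 site in Gja1 and the TATA box in 0 of the 8. No matches in these 8 windows overlapped. The windows of the 3 genes that fell are shown with that of Cldn3, a claudin that rose, since they moved in opposite directions, and capitals mark the matches. Gjb1 is chrX:70541595-70541844 on the plus strand, Tjp1 is chr1:128325361-128325610 on the minus strand, Cldn1 is chr11:87926126-87926375 on the plus strand and Cldn3 is chr12:27346548-27346797 on the minus strand, each ending at the base before the annotated start. The 3 windows of the genes that fell share none of the 4 motifs, since Gjb1 and Tjp1 hold no match and Cldn1 holds GC boxes. Their base composition differed as well, with 49.2% G and C in Gjb1, 30.4% in Tjp1 and 59.2% in Cldn1, against a median of 51.2% over all windows.
Gjb1: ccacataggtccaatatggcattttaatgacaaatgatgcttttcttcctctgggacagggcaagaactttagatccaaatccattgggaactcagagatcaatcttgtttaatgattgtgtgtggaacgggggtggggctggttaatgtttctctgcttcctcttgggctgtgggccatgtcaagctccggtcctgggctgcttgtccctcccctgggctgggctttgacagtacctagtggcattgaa
Tjp1: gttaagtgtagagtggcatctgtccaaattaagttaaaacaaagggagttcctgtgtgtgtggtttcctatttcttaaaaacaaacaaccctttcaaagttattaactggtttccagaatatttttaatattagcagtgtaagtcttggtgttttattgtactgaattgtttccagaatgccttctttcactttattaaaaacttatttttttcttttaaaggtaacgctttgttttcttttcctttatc
Cldn1: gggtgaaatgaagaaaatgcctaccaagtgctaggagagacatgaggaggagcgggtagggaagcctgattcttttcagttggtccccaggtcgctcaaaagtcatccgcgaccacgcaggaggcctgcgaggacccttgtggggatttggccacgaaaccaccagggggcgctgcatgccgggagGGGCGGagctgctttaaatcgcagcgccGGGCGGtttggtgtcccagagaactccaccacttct
Cldn3: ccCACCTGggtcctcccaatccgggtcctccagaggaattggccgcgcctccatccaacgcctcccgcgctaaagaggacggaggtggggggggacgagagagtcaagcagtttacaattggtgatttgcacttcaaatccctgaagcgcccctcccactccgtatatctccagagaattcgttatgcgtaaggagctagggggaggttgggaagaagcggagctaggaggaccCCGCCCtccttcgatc

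The other genes of the same structures were read from 9 lists. They matched 97 genes in the table, of which 75 could be tested, and 10 had an adjusted p under 0.05, 8 higher and 2 lower in the FL group. That share (10 of 75) lies below the 18.9% of all genes tested, and the median log2 difference of the 75 was 0.25, close to the 0.29 of all genes. The split depended on the scaling. With median scaling 1 gene was higher and 5 lower, where 8.75% of all genes were higher and 3.59% lower, and with quantile normalization 0 were higher and 6 lower, where 5.23% and 3.61% were. The 5 lower with median scaling were Ctnna3, Cldn12, Pvrl2, Pvrl3 and Pkp3 and the higher was Ctnna2, and with quantile normalization Cgn stood among the 6 lower. Apart from Ctnna3, each of the 10 calls was lost without CL7 and also without FL5, and was kept under 2 to 8 of 13 or 14 alternatives. Dsc1 and Gjd4 were listed at 0 in all 6 rats.

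On the log2(FPKM + 0.1) scale with all 6 rats, the largest log2 difference in size among the 75 was that of Ctnna3. With a pseudocount of 0.01, those of Ctnna2 (4.22) and Dsg1 (2.84) were larger in size than that of Ctnna3 (-2.66). Without FL12, that of Dsg1 was also larger (2.67 against -2.49). Ctnna3 encodes alpha-T-catenin, a catenin that links cadherins to actin and is best known from heart muscle. The table has 2 identifiers under this symbol, both on chromosome 20. ENSRNOG00000000378 read 16, 20.6 and 13.4 FPKM (CL5, CL6, CL7) against 1.79, 4.46 and 2.17 FPKM (FL2, FL5, FL12), so that it was lower in every FL rat by a wide margin. Its fall was -2.62 on the log2 scale (limma, standard error 0.32, adjusted p = 0.00401), and it passed under all 14 alternatives (adjusted p 0.00214 to 0.0181). ENSRNOG00000000373, named here for the shared symbol, read 0.04 to 0.19 FPKM over the 6 rats and did not pass (adjusted p = 0.314). Which exons of the gene each identifier covers is not given in the files.

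Of the 15 cadherin and catenin genes tested, 3 rose and 1, Ctnna3, fell. Of all genes tested, 16.9% were higher and 1.94% lower at this threshold, and these shares also stand beside the counts of the lists that follow. Cdh13 (T-cadherin, found on endothelium and muscle) read 0.33, 0.20 and 0.20 FPKM (CL5, CL6, CL7) against 0.54, 0.87 and 1.94 FPKM (FL2, FL5, FL12) (adjusted p = 0.0351). Cdh11, a cadherin of mesenchymal cells and activated stellate cells, read 0.35, 0.46 and 0.30 FPKM and then 0.58, 0.99 and 1.30 FPKM (adjusted p = 0.0487). Ctnna2, the neural alpha-catenin, was listed at 0 in CL5 and CL7 and at 0.12 FPKM in CL6, and read 0.28, 0.42 and 0.67 FPKM in the FL rats (adjusted p = 0.0256). The 3 genes stood at low levels and did not overlap between the groups. The Cdh13 and Cdh11 calls were lost with median scaling (adjusted p = 0.0573 and 0.0862) and with quantile normalization (0.135 and 0.248), and that of Ctnna2 with the latter (0.0782). Of the 9 stellate cell or myofibroblast markers tested, 6 rose and 3 (Tagln, Acta2 and Lrat) did not pass, and their part in these changes was not tested. Cdh2 (N-cadherin), the second main cadherin of hepatocytes and the highest of the list in each rat but CL5, read 33.6, 37.0 and 34.0 FPKM (CL5, CL6, CL7) against 37.6, 50.7 and 59.0 FPKM (FL2, FL5, FL12), and did not pass (log2 difference 0.47, adjusted p = 0.0908). Beside it, Ctnnb1, Ctnna1 and Ctnnd1, the common catenins, did not pass, with adjusted p-values of 0.18, 0.0553 and 0.36 (genes named after their values were seen). Without FL2, Cdh2 and Ctnna1 passed with higher values (adjusted p = 0.0131 and 0.0316 from limma), while Ctnnb1 and Ctnnd1 did not.

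Among the tight junction genes, Cldn12, a claudin that passes calcium in the gut, fell and was the most abundant of the further claudins. It read 8.35, 8.34 and 7.67 FPKM (CL5, CL6, CL7) against 6.02, 6.39 and 4.88 FPKM (FL2, FL5, FL12), with all FL rats below all CL rats (log2 fold change -0.50, adjusted p = 0.0418, or 0.019 with median scaling). The Cldn12 call was lost with no filter on low values (adjusted p = 0.0523), with limma without trend (0.0758) and without any 1 rat other than FL2. The other 5 claudins tested did not pass. Of the 11 MARVEL, JAM and tricellular genes, Marveld2 (tricellulin, which seals the corners where 3 cells meet) rose, from 2.44, 2.80 and 2.86 FPKM to 3.66, 3.82 and 4.33 FPKM (log2 fold change 0.53, adjusted p = 0.04), a call lost with median scaling (0.31, adjusted p = 0.173) and with quantile normalization (0.15, adjusted p = 0.493). Lsr, the lipolysis-stimulated lipoprotein receptor that recruits tricellulin, was the most abundant gene of that list, with 45.3 to 47.0 FPKM in the CL rats and 36.4 to 46.4 FPKM in the FL rats (adjusted p = 0.381). Of the 11 further scaffold genes, Amot and Amotl1 rose, which encode angiomotins, binders of actin and of the Hippo pathway effector YAP. Amot read 1.12, 1.21 and 1.07 FPKM (CL5, CL6, CL7) against 1.77, 1.87 and 2.25 FPKM (FL2, FL5, FL12) (log2 fold change 0.74, adjusted p = 0.0278). Amotl1 read 2.38, 2.09 and 2.13 FPKM and then 3.33, 3.12 and 4.61 FPKM (log2 fold change 0.70, adjusted p = 0.0348). Both calls were lost with median scaling (0.53 and 0.48, adjusted p = 0.0702 and 0.106) and with quantile normalization (0.26 and 0.30, adjusted p = 0.327 and 0.326). The ZO paralog Tjp3, named after its values were seen, did not pass, with a log2 difference of 0.29 (adjusted p = 0.307), the sign of which turned under quantile normalization (-0.12). Cgnl1 (paracingulin), the most abundant scaffold of the list, read 25.3 to 25.9 FPKM in the CL rats and 23.1 to 30.5 FPKM in the FL rats (adjusted p = 0.797).

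The further connexins were all low. Gjc3, the highest of them by the mean of all 6 rats but below Gja4 in CL5 and FL5, read 0.74 to 1.99 FPKM in the CL rats and 0.47 to 1.41 FPKM in the FL rats and did not pass (adjusted p = 0.396). Neither pannexin tested passed, and Panx1, which was below Panx2 in CL5 and CL6 and above it in the other rats, read 0.89 to 1.41 FPKM in the CL rats and 1.29 to 1.60 FPKM in the FL rats. Of the 8 desmosome genes tested, Dsg1, a desmosomal cadherin of epidermis, rose from 0.12, 0.11 and 0.29 FPKM to 3.09, 0.77 and 0.70 FPKM (FL2, FL5, FL12) (adjusted p = 0.027, and 0.0544 with median scaling), with FL2 far above the other FL rats. Pkp4, the highest desmosome gene in each rat but FL2 and FL12, where Dsc2 was higher, overlapped between the groups (18.4 to 28.1 and 20.5 to 26.0 FPKM). Of the 5 nectin and afadin genes and the 12 polarity genes tested, 0 passed the adjusted p from limma. At an unadjusted p of 0.05, Pvrl2, the highest of its list in each rat but FL12, and Pvrl3 were lower in the FL group, and the nectin-like PVR and the polarity genes Pard6b and Prkcz were higher (apart from Pvrl2, genes named after their values were seen). With median scaling Pvrl2 and Pvrl3 passed (log2 fold changes -0.62 and -0.58, adjusted p = 0.0208 and 0.0149), as they did with quantile normalization (0.0333 and 0.0243). Pard6b passed with limma without trend (adjusted p = 0.0375) and with a pseudocount of 0.01 (0.0495). Prkci, the highest polarity gene in each rat but FL2 and FL12, where Pard3b was higher, read 9.29 to 10.8 FPKM in the CL rats and 7.40 to 9.70 FPKM in the FL rats (adjusted p = 0.253).

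**Figure D3:**
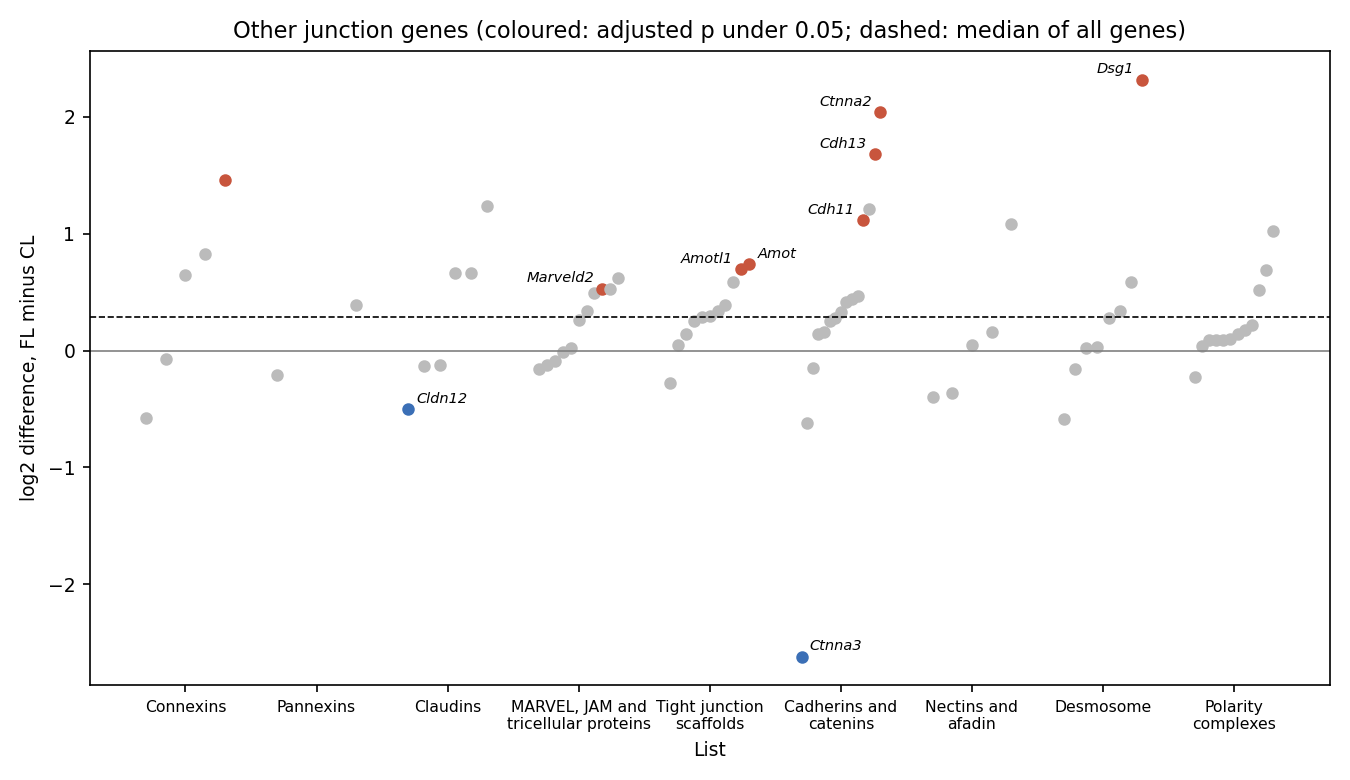
FL minus CL difference in log2(FPKM + 0.1) (y axis) for the 75 other junction genes tested, by list (x axis). Red points rose and blue points fell (adjusted p under 0.05), with names beside all but 1 of them, grey points did not pass, and the dashed line is the median of all genes tested (0.29). Most points lie between -0.5 and 1, and Ctnna3 stands apart at -2.62.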

How the data were processed

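Liver RNA of 6 rats, depleted of ribosomal RNA, was sequenced with 1 library per rat. According to the study's methods, the authors trimmed the reads with the FASTX-Toolkit, aligned them with TopHat2 allowing 4 mismatches and kept uniquely located reads. The deposited values are FPKM per gene, as the authors computed them, for 19616 genes with Ensembl rat identifiers. The submitters' notes name the genome GRCh38, whereas the identifiers are those of rat. The annotation release and strandedness are not given in the sources used here, so that overlapping antisense genes cannot be told apart. The authors tested counts with edgeR, and counts were not analysed here. In the table, 2 further columns of values were not used.

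The FL group was compared with the CL group by limma 3.58.1 (R 4.3.3) with a trend, on log2(FPKM + 0.1), for 14864 genes whose mean reached 0.1 FPKM. P-values were adjusted by Benjamini-Hochberg over all of these. Genes were called at an adjusted p under 0.05, alone or with a change of at least 2-fold, the study's limits. Ratios of 2 genes within a rat were compared by exact permutation. A test on simulated data of 14570 genes recovered 190 of 200 changed genes with 11 false calls. This recovery was read over all changed genes together. Recovery at the fold changes seen in the junction genes was not tested. The members and the gene lists were chosen with earlier results of these data known. Named were all members, every other junction gene past the adjusted p (up to 4 per list and direction), the gene of each list with the highest mean over the 6 rats, and listed genes at 0 in all rats. Some genes that enter the counts are not reported here by name. The alternatives were pseudocounts of 1 and 0.01, no filter or a mean of at least 1 FPKM, limma's robust prior, limma without trend, quantile normalization, median scaling, no fold limit, and leaving out each rat. Python 3.11.15, pandas 2.3.3 and matplotlib 3.10.9 were used for tables and plots. No pair of libraries was a copy of another, with 0.99% to 2.87% of values above 0 identical between rats. FPKM give no counts, so that no counting interval can be given.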

Additional observations from a re-analysis of the deposited data

How the results depend on the processing

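Under the adjusted p alone, 5 of the 10 junction genes passed, against 3 with no filter on low values, 3 with limma without trend and 2 with quantile normalization. Leaving out 1 rat gave 0 (without CL5 or CL6) to 3 (without FL2). With the 2-fold limit the count was 1, which became 0 with a pseudocount of 1, with a mean of at least 1 FPKM (Cldn5 was then not tested) and with quantile normalization, 5 with no fold limit, and 0 to 1 when 1 rat was left out. Of the other junction genes, 10 passed the adjusted p, against 4 with no filter, 6 with median scaling, 6 with quantile normalization, 6 with limma without trend and 1 to 16 without 1 rat. With the 2-fold limit, 6 passed, against 1 with a pseudocount of 1, 1 with a mean of at least 1 FPKM, 2 with median scaling, 2 with quantile normalization, 10 with no fold limit and 1 to 7 without 1 rat. Of all genes, 1520 passed both limits, against 534 with a pseudocount of 1, 948 with a mean of at least 1 FPKM, 1007 with median scaling, 684 with quantile normalization, 2806 with no fold limit and 821 (without CL7) to 1991 (without FL2). Under the adjusted p alone 2806 passed, against 1834 with median scaling, 1314 with quantile normalization and 1063 (without CL7) to 3536 (without FL2). The cause of these shifts was not tested, beyond the fewer rats or genes in a fit.

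When 1 rat was left out, the log2 ratio of Gjb1 to Gjb2 differed between the groups by -0.80 to -0.54, that of Gja1 to Gjb1 by 0.71 to 0.99 and that of Cldn2 to Cldn3 by -0.94 to -0.56 (exact permutation, p = 0.2, the smallest that 2 against 3 allow). For the named genes, 278 of 386 values stayed on their side of the threshold, 105 lost the call, 3 gained one and 0 of the called genes changed sign. Several genes that did not pass, Gjb2 and Cldn2 among them, did not keep their sign under every alternative. According to the paper the rats were assigned to the groups at random. No pairing between CL and FL rats is given, so that no paired analysis was made. The table gives depth only in relative terms, so that the precision of low levels such as that of Cldn5 rests on the spread of 3 rats per group.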

Other observations

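The markers of the other cell types of the liver, read as whole lists, varied in the same rats as follows. Beside the counts of markers here and above, 16.9% of all genes tested were higher at the adjusted p from limma. Of the 9 stellate cell or myofibroblast markers tested, 6 rose, with a median log2 difference of 2.28. Of these, Lum did not pass under quantile normalization (adjusted p = 0.0529) or without CL6, CL7, FL5 or FL12 (0.0562, 0.0674, 0.0703 and 0.0549), and the others passed under every alternative tried. The list summed to 82.2, 86.0 and 80.2 FPKM (CL5, CL6, CL7) against 203, 545 and 498 FPKM (FL2, FL5, FL12), mostly as Col3a1, so that FL2 stood lowest of the FL rats. Of the 10 macrophage markers, 4 rose (median 0.93, or 0.57 under quantile normalization), and the list summed to 123 to 127 FPKM in the CL rats and to 283, 261 and 175 FPKM in FL2, FL5 and FL12, with Clec4f, the Kupffer cell lectin, the highest in the CL rats and FL5, Marco in FL2 and Lyz2 in FL12. Here FL2 stood highest. Of the 8 lymphocyte markers tested, 2 rose, Cd4 and Ptprc, while Cd3d, Cd3e, Cd8a, Cd79a, Cd79b and Nkg7 did not pass (median 0.86, or 0.29 under quantile normalization). The lymphocyte list summed to 13.4 to 15.4 FPKM in the CL rats and 30.6 to 39.8 FPKM in the FL rats, with Cd4 the most abundant.

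Of the 10 markers of cycling cells, 3 rose (median 1.52), against 2 after median scaling and 0 after quantile normalization (Birc5 0.0559, Mki67 0.13 and Tpx2 0.074 as adjusted p, median 0.97), 0 without CL5, CL7, FL5 or FL12, and 10 without FL2, and the list summed to 4.19, 7.88 and 5.02 FPKM (CL5, CL6, CL7) against 7.26, 31.4 and 26.9 FPKM (FL2, FL5, FL12), so that FL2 lay within the CL range. Mki67 was the highest in CL6, FL5 and FL12, Tpx2 in CL5 and FL2, and Top2a in CL7. Of the 9 peritoneal mesothelium markers tested, 2 rose, Krt8 and Krt18, keratins that hepatocytes also express, while the median of the list was -0.42 (-0.63 with median scaling and -0.80 with quantile normalization). Both calls were lost with median scaling (adjusted p = 0.053 and 0.0627) and without CL6, CL7 or FL5, and that of Krt8 also with quantile normalization (0.0544) and without FL12 (0.0661). Krt18 was the most abundant, and the list summed to 66.7 to 85.5 FPKM in the CL rats and 102 to 140 FPKM in the FL rats. The medians of the hepatocyte, cholangiocyte, sinusoidal and vascular endothelial lists were -0.10, 0.80, 0.12 and 0.42, beside 0.29 over all genes tested. With median scaling they were -0.33, 0.63, -0.10 and 0.20, and with quantile normalization 0.29, 0.23, -0.12 and 0.08, so that the signs of the hepatocyte and sinusoidal medians depended on the scaling. Fcgr2b was the highest sinusoidal marker in each rat but FL12, where Lyve1 was the highest. No listed marker was at 0 in all 6 rats.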
